A study of Rattus norvegicus with 6 samples.

Results

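S100 proteins and annexins were followed at the RNA level in cultured rat Schwann cells, by 10 genes: the S100 genes S100b, S100a1, S100a4, S100a6, S100a10 and S100a11, and the annexin genes Anxa1, Anxa2, Anxa3 and Anxa5. The genes were chosen by name. Every probe set annotated with one of these symbols was taken, which gave 14 probe sets for these 10 of the 14217 genes measured. The primary Schwann cells, labelled as coming from sciatic nerve, carried RafER, a Raf kinase made inducible by tamoxifen through fusion to the hormone-binding domain of the estrogen receptor. In minimal medium, 3 samples received tamoxifen and 3 received the ethanol vehicle, for 24 h, in what the design text calls independent experiments, numbered 1 to 3 in the titles. All 6 samples carried RafER, and cells without it were not analysed here, so tamoxifen itself and Raf activity cannot be told apart. Neither the promoter driving RafER nor the number of lines behind the cells is stated in the sources used here. The source labels speak of treated rats, but the series' design describes treated cultures, and the design was followed.

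S100 proteins are small calcium sensors: calcium bound in their EF-hand loops opens a surface that grips other proteins. Annexins bind acidic membrane phospholipids when calcium rises, and take part in membrane repair, vesicle traffic and the cortical cytoskeleton. The families meet directly, since S100a10, which has lost calcium binding, holds annexin A2 in a complex at the plasma membrane, and S100a11 binds annexin A1. In peripheral nerve S100b is a standard marker of Schwann cells.

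After tamoxifen, 3 of the 10 transcripts fell, none rose and 7 did not pass. Anxa3, an annexin, fell by 2.67 on the log2 scale. S100a1, a partner of calcium-handling proteins in muscle, fell by 0.84, and S100b fell by 0.76. The test was limma's moderated test over 31042 probe sets, with a Benjamini-Hochberg adjusted p under 0.05 as the threshold, and the probe set with the highest mean over the 6 arrays stood for its gene. Over all genes 31.2% were called in this comparison, 13.9% as higher and 17.3% as lower, so 3 called of 10 lies near the background. With the experiment number as a block, 3 of the 10 genes were called, against 33.3% of all genes. They were the same 3: Anxa3 (limma with the block, adjusted p = 0.00187), S100a1 (0.00384) and S100b (0.0231). Of the 14 probe sets 3 were lower and none higher, against 24.4% of all probe sets called and 12.9% called lower. The median log2 difference, tamoxifen minus vehicle, was -0.40 over the 10 genes, against 0.01 over all genes. These backgrounds include dim probe sets. When only the 17068 probe sets with a mean of at least 6 log2 units were tested, 6921 were called, 3802 of them lower. Their median difference was -0.03. The tamoxifen and vehicle arrays did not overlap for 6 of the 10 genes, against 49.1% of all genes. Levels are given as log2 expression values, and each ± after a difference is limma's standard error (SE) unless marked SD.

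Promoter sequence is shown for the called members that RefSeq's promoter table holds, Anxa3 and S100b, and for S100a13 and S100a16, neighbours in the S100 cluster that moved in opposite directions (below). Each run is the 250 bases before the annotated start in build GRCr8, 5′ to 3′ on the gene's strand, and capitals mark the Sp1-type motif GGGCGG on either strand. Anxa3 lies at chr14:13085598-13085847 on the minus strand, S100b at chr20:12381082-12381331 on the minus strand, S100a13 at chr2:178296770-178297019 on the plus strand and S100a16 at chr2:178313736-178313985 on the plus strand.
Anxa3: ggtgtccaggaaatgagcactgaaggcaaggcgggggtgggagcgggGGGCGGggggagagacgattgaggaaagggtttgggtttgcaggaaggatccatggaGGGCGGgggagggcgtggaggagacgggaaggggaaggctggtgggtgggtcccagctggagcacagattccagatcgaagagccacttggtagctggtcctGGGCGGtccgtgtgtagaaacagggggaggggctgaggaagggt
S100b: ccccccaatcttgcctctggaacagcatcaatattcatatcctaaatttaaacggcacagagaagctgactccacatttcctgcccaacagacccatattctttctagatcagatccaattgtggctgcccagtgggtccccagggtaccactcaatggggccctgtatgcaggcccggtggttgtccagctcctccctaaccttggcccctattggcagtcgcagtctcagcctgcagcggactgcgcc
S100a13: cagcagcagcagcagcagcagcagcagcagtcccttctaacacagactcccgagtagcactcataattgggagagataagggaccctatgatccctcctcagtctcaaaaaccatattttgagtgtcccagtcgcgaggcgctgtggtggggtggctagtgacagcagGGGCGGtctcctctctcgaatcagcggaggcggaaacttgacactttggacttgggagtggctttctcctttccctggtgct
S100a16: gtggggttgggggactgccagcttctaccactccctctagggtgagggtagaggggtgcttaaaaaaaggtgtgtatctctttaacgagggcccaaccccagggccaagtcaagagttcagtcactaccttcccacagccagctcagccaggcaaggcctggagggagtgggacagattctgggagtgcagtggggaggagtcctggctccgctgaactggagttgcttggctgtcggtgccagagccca
The Anxa3 stretch held GGGCGG 3 times and was 64% G and C, the S100a13 stretch held it 1 time at 55.6% G and C, and the S100b stretch (54.8%) and the S100a16 stretch (59.2%) held none. The motif stood in 30.5% of 33469 promoter stretches of this length, whose median G and C content was 51.2%. None of these 4 stretches held the AP-1 motif TGANTCA (6.34% of all stretches), the ETS core CCGGAA (12.6%) or TATAAA (12.9%), each searched on both strands. Of the 10 members 8 were in the table, and among them Anxa2 held 1 AP-1 motif, Anxa1 held 1 ETS core, and S100a4, Anxa1 and Anxa2 held TATAAA. The Sp1-type motif also stood in the stretches of S100a6, S100a11, Anxa2 and Anxa5, none of which was called. No motif hits overlapped one another in the printed stretches.

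**Figure D1:**
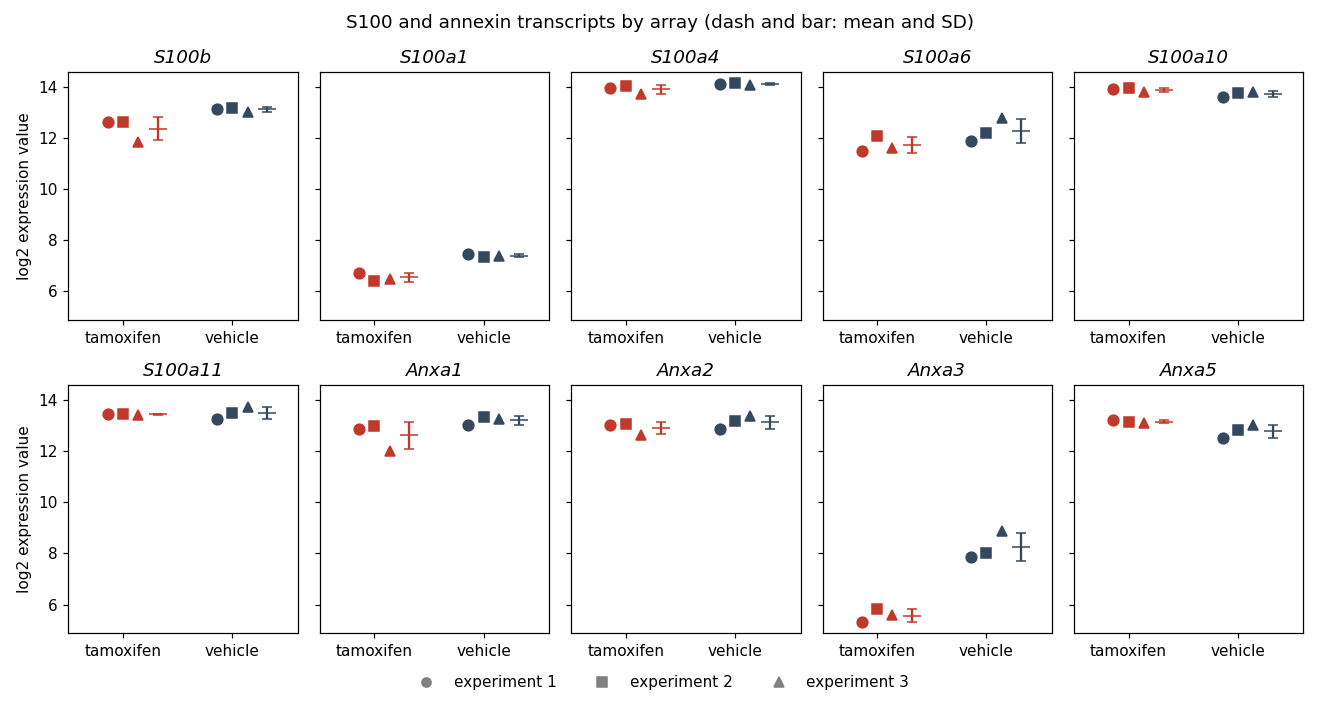
Log2 expression value of each of the 10 genes on the 3 tamoxifen arrays (left, red) and the 3 vehicle arrays (right, dark), with markers by experiment and the mean and SD beside them. Anxa3 lies between 5.32 and 5.81 after tamoxifen and between 7.87 and 8.87 after vehicle, and 8 of the 10 genes lie above 11 on every array.

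Anxa3 encodes an annexin that binds membrane phospholipids in a calcium-dependent way. By its brightest probe set it measured 5.32, 5.81 and 5.58 on tamoxifen arrays 1 to 3, against 7.87, 7.9994 and 8.87 on vehicle arrays 1 to 3. The groups did not overlap, and the difference was -2.67 ± 0.28 (SE; adjusted p = 0.00139), a measured level 6.38-fold lower after tamoxifen. The tamoxifen mean of 5.57 ± 0.25 (SD, n = 3) lies among the levels of the dim probe sets of this gene, and whether it is above background was not tested, so the fold is that of the measured values only. The experiments gave -2.55, -2.19 and -3.29, all lower. The other 3 probe sets of Anxa3 were dim and did not pass: they gave -0.57 ± 0.17 (adjusted p = 0.0532), -0.47 ± 0.18 (0.112) and 0.02 ± 0.09 (0.882). The first of these passed with the experiment number as a block (limma, adjusted p = 0.0430). Those 3 probe sets had group means between 4.75 and 6.30, and the mean over all 4 probe sets gave -0.92 (adjusted p = 0.00464), a smaller fall than the brightest one alone.

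S100a1 is a calcium sensor best known for acting on the calcium pump and release channel of muscle. It measured 6.74, 6.42 and 6.50 on the tamoxifen arrays, against 7.46, 7.34 and 7.38 on the vehicle arrays. The difference was -0.84 ± 0.11 (SE; 95% interval -1.10 to -0.58; adjusted p = 0.00280). Every tamoxifen array lay below every vehicle array, and the experiments gave -0.73, -0.92 and -0.88. S100a1 and Anxa3 stayed below the threshold whichever array was left out, with a highest adjusted p of 0.0137 for S100a1 and 0.00727 for Anxa3.

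S100b, the Schwann cell marker, measured 12.62, 12.61 and 11.83 on the tamoxifen arrays, against 13.14, 13.18 and 13.02 on the vehicle arrays. The difference was -0.76 ± 0.22 (SE; 95% interval -1.28 to -0.24; adjusted p = 0.0459), a level 1.69-fold lower after tamoxifen, with no overlap. Tamoxifen array 3 was the lowest, and the experiments gave -0.52, -0.57 and -1.19. S100b missed the threshold when tamoxifen array 1 (adjusted p = 0.0514) or 2 (0.0613) was left out, and likewise for vehicle array 1 (0.0896), 2 (0.116) or 3 (0.0846). Without tamoxifen array 3 it stayed past the threshold, with a smaller difference of -0.50 (adjusted p = 0.0238). In RNA of a whole culture, fewer cells expressing a gene and less RNA per cell cannot be told apart.

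The bright S100 transcripts other than S100b did not pass. S100a4, a regulator of non-muscle myosin and cell motility, measured 13.94, 14.05 and 13.72 after tamoxifen, against 14.10, 14.14 and 14.06 after vehicle. The groups did not overlap, but the difference was only -0.20 ± 0.11 (95% interval -0.45 to 0.05; adjusted p = 0.235). With cyclic loess scaling S100a4 passed as lower (-0.34; adjusted p = 0.0435). S100a6, or calcyclin, measured 11.50, 12.09 and 11.59 after tamoxifen, against 11.87, 12.20 and 12.79 after vehicle. The arrays overlapped, and the interval of the difference, -1.18 to 0.06 around -0.56 ± 0.26 (adjusted p = 0.178), leaves room for a fall larger than those of S100b and S100a1.

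S100a10, the partner of annexin A2, measured 13.92, 13.94 and 13.79 after tamoxifen, against 13.58, 13.78 and 13.79 after vehicle. The difference was 0.16 ± 0.10 (95% interval -0.07 to 0.40; adjusted p = 0.292), and the groups overlapped. S100a11 measured 13.45, 13.45 and 13.40 after tamoxifen, against 13.26, 13.48 and 13.74 after vehicle. Its difference was -0.06 ± 0.13 (95% interval -0.37 to 0.25; adjusted p = 0.7998), and its sign turned without vehicle array 3 (0.07). The RefSeq gene table lists 5 pseudogenes and 2 like-named genes of S100a11, 1 pseudogene of S100a10, 8 pseudogenes of Anxa2 and 4 pseudogenes of Anxa7, and whether the probes also read such copies was not tested. S100a4, S100a10 and S100a11 lie near the highest value in the table, 14.58, and whether signal saturates there was not tested.

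**Figure D2:**
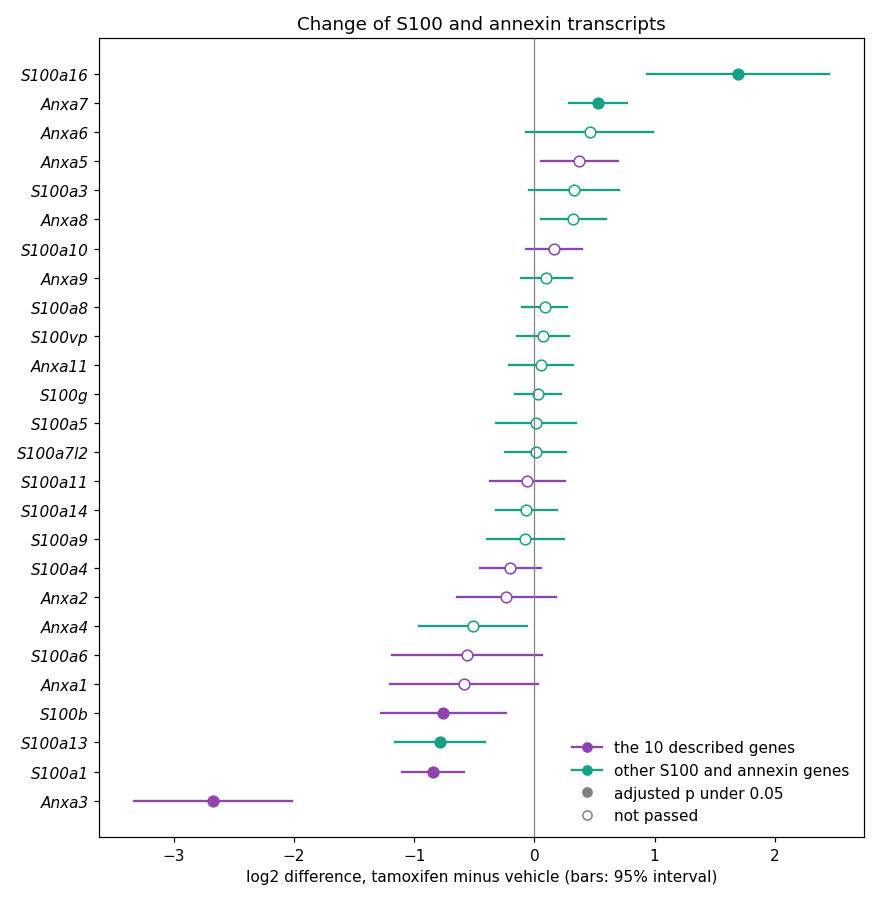
Log2 difference, tamoxifen minus vehicle, with its 95% interval, for the 10 described genes (purple) and the 16 other measured S100 and annexin genes (green), with filled points for an adjusted p under 0.05. Anxa3 stands lowest at -2.67 and S100a16 highest at 1.69.

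Among the annexins, Anxa2, which links membranes to actin and, with S100a10, docks plasminogen and its activator at the cell surface, measured 13.01, 13.07 and 12.62 after tamoxifen, against 12.86, 13.18 and 13.36 after vehicle. The groups overlapped and the difference was -0.23 ± 0.17 (95% interval -0.64 to 0.18; adjusted p = 0.391). Its sign turned without both arrays numbered 3 (0.02), a choice made after seeing the data, and its dim second probe set gave 0.00 ± 0.14. Neither member of the annexin A2 and S100a10 pair passed, with point differences of opposite sign and intervals that both hold 0.

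Anxa1, the glucocorticoid-induced annexin that signals through formyl peptide receptors when released, measured 12.87, 12.98 and 12.01 after tamoxifen, against 13.02, 13.35 and 13.24 after vehicle. Each tamoxifen array lay below each vehicle array, by little except on tamoxifen array 3. The difference of -0.59 ± 0.26 (95% interval -1.20 to 0.03; adjusted p = 0.156) shrank to -0.28 without that array. Anxa5, the annexin used as a probe for phosphatidylserine on dying cells, measured 13.21, 13.14 and 13.11 after tamoxifen, against 12.52, 12.82 and 13.0047 after vehicle. It was the only member higher in all 3 experiments, by 0.70, 0.32 and 0.10, with a difference of 0.37 ± 0.13 that did not pass (adjusted p = 0.0922). It passed as higher without vehicle array 3 (0.49; adjusted p = 0.0456). Without vehicle array 1, where Anxa5 was lowest, the difference shrank to 0.24 (adjusted p = 0.151).

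The size of the difference went with the experiment. For 9 of the 10 genes the difference was lowest in experiment 3 and for the other, S100a1, in experiment 2. Over all genes, experiment 1 was lowest for 45.6%, experiment 2 for 22.3% and experiment 3 for 32.1%. Among the other measured genes of both families, experiment 3 was also lowest for S100a3, S100a8, S100a9, S100a13, Anxa4, Anxa6, Anxa7 and Anxa11. It was not lowest for S100a5, S100a7l2, S100a14, S100a16, S100g, S100vp, Anxa8 and Anxa9. The median difference over the 10 genes was -0.16, -0.11 and -0.81 in experiments 1 to 3, against -0.03, 0.01 and 0.02 over all genes. The members share these arrays and are not independent of each other. Vehicle array 1 was the lowest vehicle array for S100a6, S100a10, S100a11, Anxa1, Anxa2, Anxa3 and Anxa5, but not for S100b, S100a1 and S100a4. That array also stood apart in the 3′ minus 5′ difference of control transcripts (0.84, below), and its part here was not tested. Both arrays numbered 3 stood apart in the smooth muscle gene Tagln, at 9.98 on tamoxifen array 3 and 10.94 on vehicle array 3. The other 4 arrays lay between 8.42 and 8.84. Within each group Pdgfrb and Des were also highest on array 3, but Mcam was lowest there (12.61 after tamoxifen, 12.81 after vehicle). Acta2, Cnn1, Myh11 and Rgs5 were not highest on both arrays numbered 3. These arrays also stood apart in Gap43, an S100b target, at 8.38 after tamoxifen and 10.14 after vehicle. The other 4 arrays lay between 11.20 and 12.56 for Gap43. The mean level of the 8 smooth muscle and pericyte markers was 6.90 to 7.31 on the tamoxifen arrays and 7.04 to 7.51 on the vehicle arrays, and its part in these differences was not tested. Without both arrays numbered 3, a choice made after seeing the data, 3 of the 10 genes were still lower and none higher, and the median difference over the members was -0.19.

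**Figure D3:**
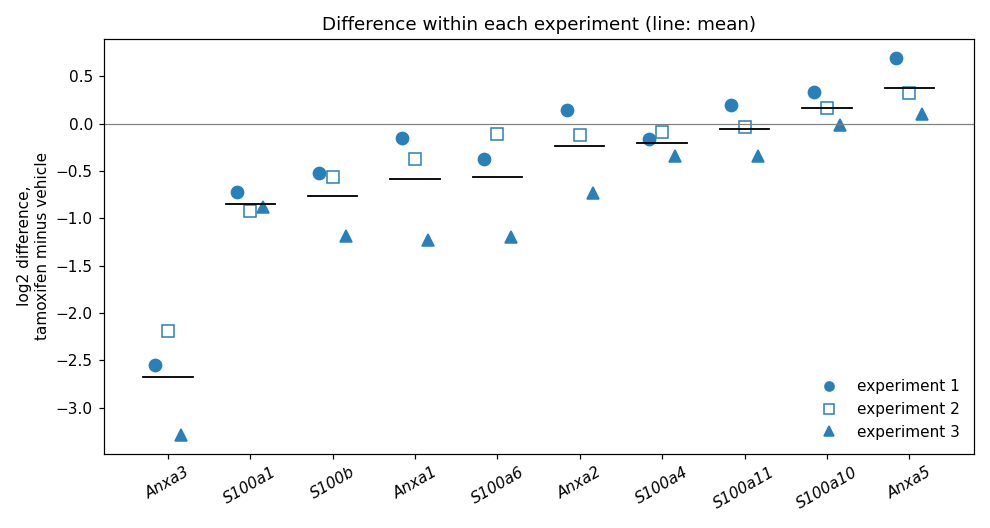
Log2 difference, tamoxifen minus vehicle, of each of the 10 genes within experiment 1 (circles), 2 (open squares) and 3 (triangles), with the mean as a line. The triangles are the lowest points for 9 genes, and Anxa5 alone lies above 0 in all 3 experiments.

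Of 16 other S100 and annexin genes measured, 2 rose, 1 fell and 13 did not pass, with a median difference of 0.06. Over all genes 13.9% were called higher and 17.3% lower. The other S100 genes had a mean level of 5.21 to 5.31 on the tamoxifen arrays and 5.08 to 5.20 on the vehicle arrays. The member S100 genes lay at 11.81 to 12.09 and 12.24 to 12.47. The other annexins lay at 8.61 to 8.89 and 8.58 to 8.63. Whether the dim genes are above background was not tested, so their small differences say little about regulation. S100a16, a widely expressed S100 protein of weak calcium affinity, measured 8.07, 8.63 and 9.35 after tamoxifen, against 6.89, 6.79 and 7.30 after vehicle. It rose by 1.69 ± 0.32 (adjusted p = 0.0104), without overlap, and was highest on tamoxifen array 3. S100a13, which takes part in the release of fibroblast growth factor 1, measured 8.55, 8.93 and 8.33 after tamoxifen, against 9.33, 9.37 and 9.48 after vehicle, and fell by 0.79 ± 0.16 (adjusted p = 0.0130). Both calls held whichever single array was left out, but S100a13 missed the threshold without both arrays numbered 1 (adjusted p = 0.0670) or both numbered 3 (0.0793). Anxa7, a membrane fusion annexin, rose by 0.53 ± 0.10 (adjusted p = 0.0113), while its dimmer probe set gave 0.09 (adjusted p = 0.758). It missed the threshold without both arrays numbered 1 (adjusted p = 0.0668).

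The remaining annexins did not pass. Anxa4 gave -0.51 (adjusted p = 0.101), Anxa6 0.46 (0.192), Anxa8 0.32 (0.0850), Anxa9 0.10 (0.480) and Anxa11 0.06 (0.767). Anxa6, the large annexin with a doubled core, passed as higher with the experiment number as a block (limma, adjusted p = 0.0349). Of the S100 genes, S100a3 gave 0.33 (adjusted p = 0.187), and S100a5, S100a7l2, S100a8, S100a9, S100a14, S100g and S100vp lay between -0.07 and 0.08. S100a8 and S100a9, the calprotectin subunits of neutrophils, had group means of 3.62 and 4.56 after tamoxifen, against 3.54 and 4.63 after vehicle, near the low end of the table.

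The S100 genes apart from S100b, S100g and S100z lie together on 1 chromosome, and their order in the RefSeq gene table was set beside the changes. S100a1 and S100a13, next to each other and not overlapping in that table, both fell, by 0.84 and 0.79. S100a14, the next gene, gave -0.07 (adjusted p = 0.703), and S100a16, the one after it, rose by 1.69. Further along, S100a3, S100a4, S100a5 and S100a6 did not pass, nor did S100a8 and S100a9. Among these, S100a14, S100a3 and S100a5 were also dim, with means of 5.17, 5.79 and 4.65 after tamoxifen and 5.24, 5.46 and 4.64 after vehicle. The missing calls of dim genes therefore say little about regulation along the cluster. S100a11 and S100a10 lie apart from this run, with 55 other protein-coding genes between S100vp and S100a11. Whether neighbours moved together more often than other genes was not tested.

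**Figure D4:**
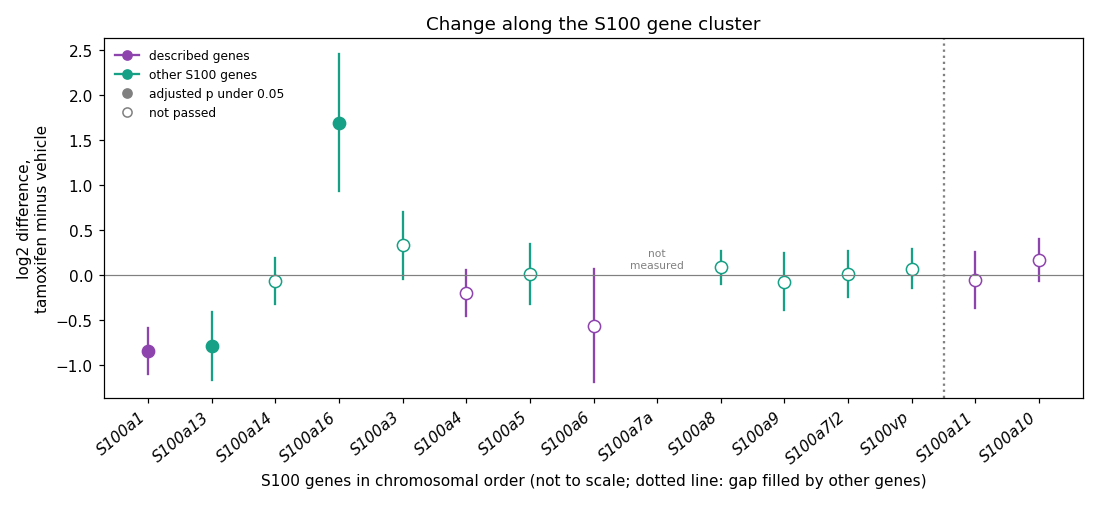
Log2 difference, tamoxifen minus vehicle, with its 95% interval, for the S100 genes of the cluster in chromosomal order (not to scale). S100a1 and S100a13 at the left lie below 0, S100a16 at 1.69 lies above, and S100a7a was not measured.

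Proteins that S100 proteins and annexins act on were read from fixed lists. Of 27 measured binding partners and targets 3 rose and 2 fell, with a median difference of 0.04, a smaller share than the 31.2% of all genes called. Cacybp, the calcyclin-binding protein that S100a6 grips, rose by 0.96 ± 0.12 (adjusted p = 0.00259), with 1.14 by its second probe set. Iqgap1, a scaffold bound by S100b, rose by 0.76 ± 0.16 (adjusted p = 0.0162), which missed the threshold with vehicle array 2 (0.0522) or 3 (0.0504) left out, while its second probe set rose by 1.24. Atp2a2, a calcium pump of the endoplasmic reticulum, rose by 0.59 ± 0.13 (adjusted p = 0.0184), missed the threshold with tamoxifen array 1 (0.0610) or 3 (0.0622) left out, and had 4 other probe sets that did not pass. The intermediate filament gene Vim fell by 0.64 ± 0.11 (adjusted p = 0.00769). Pgm1, which encodes phosphoglucomutase, fell by 0.51 ± 0.09 (adjusted p = 0.00997). Gap43, a growth-associated membrane protein and S100b target, passed as lower with the experiment number as a block (-1.14; limma, adjusted p = 0.452, and 0.0205 with the block), while its second probe set did not (0.16). Plat, the plasminogen activator that meets the annexin A2 complex, gave -0.15 ± 0.10 (adjusted p = 0.360). Of 2 measured receptors of released S100 proteins, Ager and Tlr4, neither passed, and the formyl peptide receptors were not analysed here.

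Of 15 genes of membrane repair and calcium-dependent phospholipid binding, 3 fell and none rose, with a median of -0.12, and this count lies near the 17.3% of all genes called lower. With the experiment number as a block Pdcd6ip, which recruits the membrane-cutting ESCRT machinery, also passed as lower (-0.58; limma, adjusted p = 0.0577, and 0.0181 with the block), while its other 2 probe sets did not. The 3 called without the block belong to the calpains, the calcium-activated proteases. The shared small subunit gene Capns1 fell by 0.86 ± 0.14 (adjusted p = 0.00598), to 11.20 ± 0.21 after tamoxifen, against 12.06 ± 0.17 after vehicle (SD, n = 3 each). The catalytic subunit genes Capn1 and Capn2 fell by 0.77 ± 0.17 (adjusted p = 0.0197) and 0.64 ± 0.12 (0.0103). Capn1 missed the threshold when tamoxifen array 2 (adjusted p = 0.0614) or 3 (0.0544) or vehicle array 2 (0.0554) was left out.

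Of 13 other EF-hand calcium sensors 2 rose and 2 fell, with a median of 0.13, near the 31.2% of all genes called. Ncald, a neuronal calcium sensor, fell by 2.55 ± 0.22 (adjusted p = 0.000842), at 8.002, 8.27 and 7.37 after tamoxifen, against 10.47, 10.33 and 10.48 after vehicle. Its second probe set fell by 1.501. Sri, which encodes sorcin, a binding partner of annexin A7, fell by 1.47 ± 0.19 (adjusted p = 0.00270), with -1.27 by its second probe set. Ncs1 rose by 1.08 ± 0.25 (adjusted p = 0.0230), a call lost without any 1 tamoxifen array or vehicle array 2 (at most 0.0709). Its second brightest probe set rose by 1.26. The other 2 did not pass (0.37, adjusted p = 0.0573, and 0.32, adjusted p = 0.201). The first of these 2 passed with the experiment number as a block (limma, adjusted p = 0.0334). Hpcal1 rose by 0.84 ± 0.19 (adjusted p = 0.0206), which missed the threshold with tamoxifen array 2 (0.0610) or vehicle array 2 (0.0647) or 3 (0.0549) left out.

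**Figure D5:**
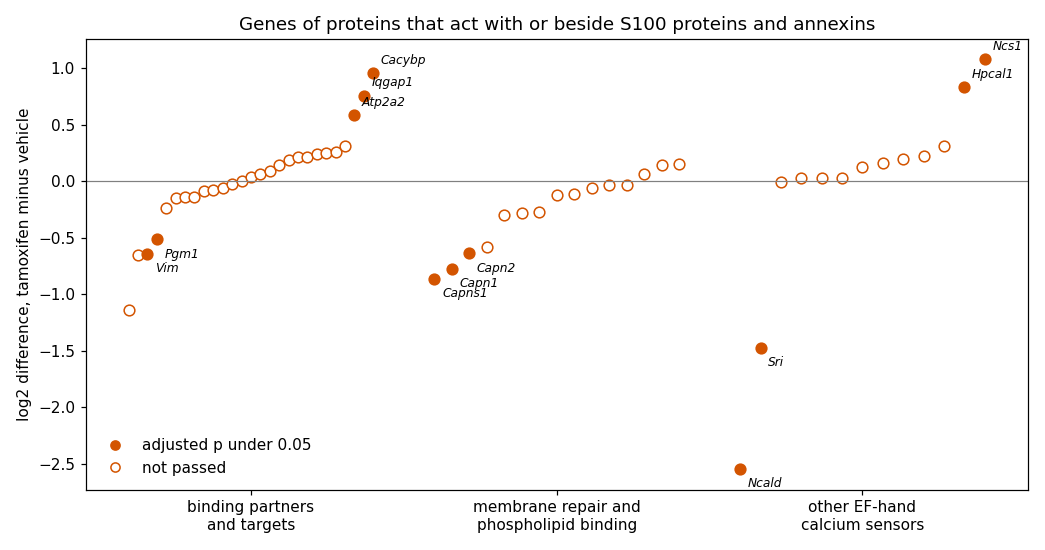
Log2 difference, tamoxifen minus vehicle, of each measured gene on the lists of binding partners, membrane repair genes and EF-hand calcium sensors, with filled and named points for an adjusted p under 0.05. The 3 calpain genes lie between -0.86 and -0.64, and Ncald is lowest at -2.55.

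The arrays and cells were checked once. Genes that ERK is known to induce rose, with Dusp6 at 4.53, Egr1 at 4.51, Fosl1 at 3.80 and Spry4 at 3.19. Esr1, which shares sequence with the fusion gene, gave 0.49 (adjusted p = 0.0171), which missed the threshold with tamoxifen array 3 (0.0554) or vehicle array 2 (0.0547) or 3 (0.0529) left out. Of 7 measured Schwann cell markers 2 fell and none rose: Ngfr fell by 1.53 and Mbp fell by 1.96. Ngfr missed the threshold without tamoxifen array 2 (adjusted p = 0.0551). The mean level of the list was 9.05 to 9.30 on the tamoxifen arrays and 9.78 to 10.03 on the vehicle arrays. Sox10 gave -0.90 (adjusted p = 0.104, and 0.0300 with the experiment number as a block). The other 4 did not pass: L1cam gave -0.51, Foxd3 -0.33, Gfap -0.23 and Erbb3 -0.06. Of these, 3 went the other way in an experiment: Gfap differed by 0.35 in experiment 3, where the S100b difference was lowest, and Erbb3 by 0.61 and Foxd3 by 0.11 in experiment 1. The part of the marker list in the fall of S100b was not tested. Markers of macrophages (mean level 4.76 to 4.84 on the tamoxifen arrays and 4.75 to 4.78 on the vehicle arrays) and endothelium (4.79 to 4.90 and 4.797 to 4.86) lay near the low end, with 0 of 10 and 0 of 7 past the threshold. Their brightest members were Aif1 (0.25) and Itgam (0.09), and Esam (-0.02) and Vwf (0.03). Of 8 neutrophil and mast cell markers, whose list also holds S100a8 and S100a9, Camp passed (0.31; adjusted p = 0.0444, and 0.0764 with the block), a call lost without any 1 array, and Cpa3 did not (0.08). That list had a mean level of 4.45 to 4.49 on the tamoxifen arrays and 4.33 to 4.44 on the vehicle arrays. Of 10 fibroblast markers 2 rose, Fbln1 (1.61) and Pdgfra (0.52), and 3 fell, Col3a1 (-2.38), Col1a1 (-1.23) and Col1a2 (-0.46), with mean levels of 6.67 to 6.74 on the tamoxifen arrays and 6.74 to 6.95 on the vehicle arrays. The Col1a2 call was lost with the block (adjusted p = 0.0530) and without 5 of the 6 arrays in turn (0.0782 to 0.143). None of 8 smooth muscle and pericyte markers passed, with Mcam at -0.24 and Tagln at -0.54. With the experiment number as a block Pdgfrb passed as lower (-1.10; limma, adjusted p = 0.257, and 0.00209 with the block), at -0.98, -1.14 and -1.19 in the 3 experiments, while its other 2 probe sets did not. The vehicle array of experiment 1 had a mean 3′ minus 5′ difference of 0.84 over 3 control transcripts, against 0.16 to 0.27 on the other 5. Without both arrays numbered 1, also chosen after seeing the data, 2 of the 10 genes fell, and S100b did not pass (-0.88; adjusted p = 0.0901).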

How the data were processed

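RNA of 6 samples of rat Schwann cells was measured on expression arrays. The authors deposited 1 log2 value per probe set and array, and the submitters' processing notes name RMA, without a version. This scale can understate the folds of dim probe sets. No detection calls were used, and the number of arrays limits the precision.

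Of 31099 probe sets 57 manufacturer controls were left out. Of the rest 20826 had 1 gene symbol, 436 had several and were not named, and 9780 had none here. Symbols were checked through Entrez identifiers against RefSeq (GRCr8), and 0 changed. Probe sets were tested in R 4.3.3 with limma 3.58.1 (lmFit, then eBayes), two-sided, on all 6 arrays without covariates, and adjusted by Benjamini-Hochberg over 31042 probe sets. P-values set the difference between the groups against the spread among these samples, moderated over all probe sets. Without the block that spread includes differences between the experiments. An exact permutation test of 3 against 3 cannot go below 0.1 and was not used. The procedure was run on simulated data with few changed probe sets and independent noise without experiment pairs. That setting differs from these data, and no conclusion is drawn from it. The members and lists were chosen with earlier results of these data known.

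Named were every member, every other measured S100 and annexin gene, from each other list up to 4 genes with the largest change past the threshold, fixed check genes and the 2 brightest markers per cell type. Mbp, Plat, Ager, Tlr4, Pgm1, Fbln1, Pdgfra, Col3a1, Gap43, Pdcd6ip, Pdgfrb, Des, Acta2, Cnn1, Myh11, Rgs5, L1cam, Foxd3, Gfap and Erbb3 were named after their values were seen.

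Experiment numbers come from the sample titles. After subtraction of group means, arrays of the same number correlated at 0.26, 0.20 and 0.28, so the numbers were taken as pairs in the fit with a block. The main test and the runs that left out 1 array did not use the pairs. The fit with the number as a block, leaving out each array, a minimum mean level, other scalings, other models of the variance and other choices of probe set were alternatives. Leaving out both arrays of experiment 1 or of experiment 3 was added after seeing the data.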

Additional observations from a re-analysis of the deposited data

How the results depend on the processing

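For the 10 members, Anxa3 and S100a1 stayed lower and past the threshold in every alternative run except, for S100a1, the test against a fold of 1.5 (adjusted p = 0.272), while S100b lost its call in 8 alternatives. Leaving out 1 array gave 2 to 3 member genes called, 2 to 4 member probe sets, 3 to 3 other S100 and annexin genes and 9 to 12 genes of the other lists, with member medians of -0.53 to -0.20. The test against a fold of 1.5 called 1 member, Anxa3, against 3, with 0 of the other S100 and annexin genes and 2 genes of the other lists. The ordinary test without moderation called 1 other S100 or annexin gene and 7 of the other lists, and cyclic loess called 5 member probe sets. Without both arrays numbered 3, 6 genes of the other lists were called, against 12. With the experiment number as a block (replicate block), 3 member genes and 4 member probe sets were called, 4 other S100 and annexin genes and 14 genes of the other lists. It changed no call of a named gene beyond those given above. Signs turned for S100a11 (0.0810), Anxa2 (0.0159), S100a9 (0.10) and S100a7l2 (-0.0516) without both arrays numbered 3, and for S100a5 (-0.15) and Esam (0.0304) without both numbered 1. They also turned with median centring for S100a5 (-0.0241), S100a7l2 (-0.0273), S100g (-0.00692) and Vwf (-0.00858), with quantile normalization for S100a5 (-0.0399), S100a7l2 (-0.0283) and Vwf (-0.0264), with cyclic loess for S100a5 (-0.0345), S100a7l2 (-0.0260) and Vwf (-0.0292), and with array weights for S100a5 (-0.0429) and S100a7l2 (-0.0321). Leaving out 1 array gave ranges that held 0 for S100a11 (-0.18 to 0.0653), S100a5 (-0.0740 to 0.14), S100a7l2 (-0.0733 to 0.0945), S100a9 (-0.17 to 0.0520), Anxa11 (-0.0243 to 0.13), Esam (-0.0652 to 0.00777), Vwf (-0.00831 to 0.0885) and Tagln (-1.04 to 0.18). Over all probe sets 7578 were called, against 3672 with the ordinary test, 1448 against a fold of 1.5 and 4215 without both arrays numbered 3. Why these results moved was not tested.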
